A study of Homo sapiens with 18 samples.

Results

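PCIF1 KO2 is a clonal knockout line of the human melanoma cell line MEL624, and its messenger RNA was compared here with that of the MEL624 control line, a wild-type line that carries a random sgRNA. Each line had 3 biological replicates, called A, B and C, of poly(A)-selected input RNA, made into directional libraries. The genes compared were those with a mean of at least 1 TPM over these 6 libraries, where TPM is the length-corrected share of a transcript in its library, which left 14512 of the 15258 genes in the deposited log2 TPM table. A second clonal knockout line, KO1, was sequenced with 3 replicates in the same way and is used below only where its values bear on KO2. KO2 is 1 clone and the control is 1 line, so the p-values rest on how much libraries of one line vary and say nothing of how much separate edited clones would. Not given in the sources used here is where KO2 was edited. In bulk RNA a smaller share of cells that express a gene and less RNA per cell cannot be told apart.

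PCIF1 is the nuclear methyltransferase that binds the phosphorylated tail of RNA polymerase II and methylates the base of an adenosine that stands next to the mRNA cap, where the ribose already carries a methyl group. The product, m6Am, is therefore found only on transcripts that start with an adenosine, and its effect on mRNA stability and translation differs between published cell systems. MEL624 comes from a pigment cell tumour, a lineage governed by the transcription factor MITF.

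The 6 libraries held between 7848089 and 11393206 reads on genes, recovered from the steps between deposited values, with 8382772 to 11393206 in the control and 7848089 to 9999035 in KO2. Across genes, replicates of a line correlated with r from 0.987 to 0.990, and libraries of different lines with r from 0.944 to 0.950. Of 9 melanocytic markers 2 had values here. MITF was 38.3, 37.1 and 36.01 TPM in control replicates A, B and C and 50.6, 47.5 and 51.96 TPM in KO2. PAX3, another lineage transcription factor, was 7.11 to 7.93 TPM in control and 8.69 to 10.8 TPM in KO2. The other 7 melanocytic markers, among them SOX10, PMEL and TYR, had no value here, and how the authors chose the genes with values is not given. Markers of T and B cells had no value (0 of 8), and the tested members of the fibroblast, endothelial, epithelial, myeloid and neuronal lists numbered 1 of 9, 3 of 9, 3 of 9, 2 of 8 and 2 of 8. Some of these markers moved with the comparison, and their part in the results was not tested. The epithelial list summed to 1065 to 1086 TPM in control and 853 to 929 TPM in KO2, most of it the keratin gene KRT18, which was 966 to 993 TPM in control and 761 to 832 TPM in KO2. The lysosomal glycoprotein gene CD68 of the myeloid list was 179.8 to 192 TPM in control and 134 to 143 TPM in KO2. The synaptic gene SNAP25, in the chromosome 20 stretch described below, was 11.3 to 12.4 TPM in control and 1.44 to 2.75 TPM in KO2. The endothelial list was mixed, with 2 members called higher and 1 lower. EGFL7, a secreted vessel protein, was 7.099 to 8.52 TPM in control and 12.5 to 13.4 TPM in KO2. The adhesion gene ESAM was 1.03 to 2.13 TPM in control and 2.99 to 4.37 TPM in KO2. ROBO4, the most abundant of them, was lower, at 23.5 to 23.95 TPM in control and 20.7 to 22.1 TPM in KO2.

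PCIF1 mRNA (ENSG00000100982, on the plus strand of chromosome 20) was not lower in KO2. It was 55.2, 62.01 and 55.6 TPM in the control libraries and 57.96, 64.7 and 58.1 TPM in the KO2 libraries, and the groups overlapped. The log2 fold change was 0.07 with a 95% confidence interval of -0.10 to 0.23 (limma adjusted p = 0.542), and the exact two-sided permutation test over 3 and 3 libraries gave p = 0.5, where 0.1 is the smallest it can give. In KO1 the level was 23.98 ± 1.77 TPM. An edit that shifts the reading frame need not lower the mRNA, so this level checks neither the genotype nor the label of KO2.

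By the limma-trend test, 4438 of 14512 genes (30.6%) differed between KO2 and control at an adjusted p under 0.05, of which 2267 were higher (15.6% of those tested) and 2171 lower (15%). Most of these differences were small. The median size among them was 0.423 on the log2 scale, and 59.4% were under 0.5. Larger changes were 279 genes higher (1.92%) and 341 lower (2.35%) by more than 1 on the log2 scale, and 93 higher (0.641%) and 102 lower (0.703%) by more than 2. The 3 KO2 libraries lay entirely outside the range of the 3 control libraries for 6355 genes (43.8%), and 4378 of the 4438 called genes were among them. The called share was 25.4% among genes of 1 to 2 TPM and 41.6% among genes of 100 TPM and over, while the median standard error of the log2 fold change fell from 0.296 to 0.0468. Just inside the 1 TPM limit were GRIA4, ZNF571 and LRCH2 (mean 1.0 TPM each), and just outside were TBXA2R, SLC6A10P and PDE3B (0.997 to 0.999 TPM). PDE3B, which has 0 reads in control and 177 in KO2, is outside the tested genes for that reason alone.

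**Figure D1:**
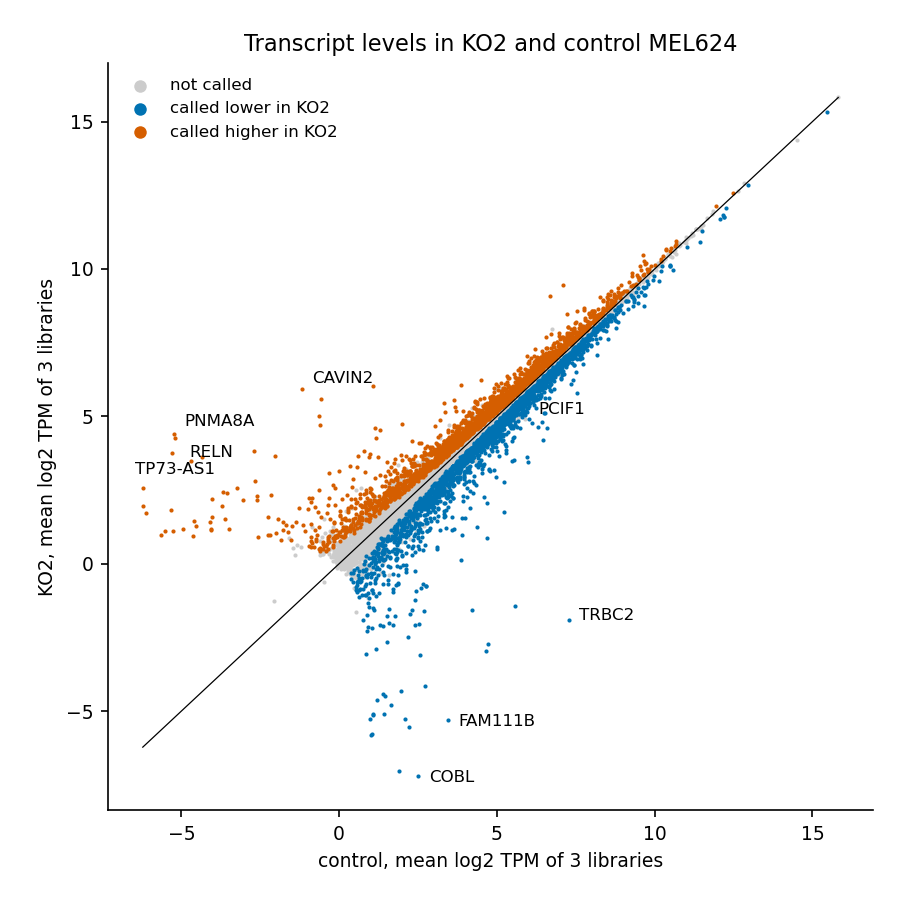
Mean log2 TPM of each of the 14512 tested genes in the 3 control libraries (horizontal axis) and the 3 KO2 libraries (vertical axis). Orange points are the 2267 genes called higher in KO2, blue points the 2171 called lower and grey points the rest, and the labelled genes other than PCIF1, which lies on the diagonal, are at the edges of the plot.

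The genes farthest from the diagonal were read in one line and hardly at all in the other. Of these, 29 had at most 3 reads over the 3 control libraries and rose in KO2, and 26 had at most 3 reads in KO2 and fell. For a line with 0 reads a lower bound of the fold is given against 3 reads over the line, and a line with 1 to 3 reads gets the fold of the read rates and its exact 95% interval. Both reflect counting error alone, because amplified copies of one molecule were not marked and reads are not independent.

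PNMA8A, a gene of the paraneoplastic Ma antigen family, had 0, 0 and 0 reads in control replicates A, B and C and 190, 161 and 243 in KO2, at least 213-fold higher. MGMT, which removes alkyl groups from the O6 position of guanine in DNA, had 0, 0 and 0 reads in the control libraries and 175, 147 and 195 in KO2, at least 186-fold higher. RELN, a secreted glycoprotein that guides neuron migration, had 1, 0 and 2 reads in control against 437, 375 and 481 in KO2, a 464-fold ratio (95% counting interval 158 to 2254). Each of the 3 was present in every KO2 library and at 2 reads or fewer in every control library. In KO1 they stood at 17.8 ± 0.405, 15.8 ± 0.4004 and 17.4 ± 0.669 TPM, against 21.1 ± 1.79, 19.2 ± 0.374 and 13.5 ± 0.1597 TPM in KO2 (mean ± SD, n = 3), and none of the 3 passed the test between the clones (limma adjusted p 0.262, 0.191 and 0.696). The homeobox gene MEOX2 had 0, 0 and 0 control reads and 64, 67 and 80 KO2 reads, at least 75.8-fold higher. The argininosuccinate synthase gene ASS1, which lets cells make their own arginine, was 0.0322, 0.168 and 0.661 TPM in control and 15.9, 12.7 and 14.1 TPM in KO2 (log2 fold change 6.53, SE 0.813, limma adjusted p = 0.000223).

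A further group was far higher in KO2 than in both other lines. TP73-AS1, a long non-coding RNA next to TP73, had 0, 0 and 0 reads in control and 112, 100 and 108 in KO2, at least 115-fold higher, and KO2 was above KO1 by 7.74 in log2 TPM (limma adjusted p = 0.000114). FAM50B, an imprinted retrogene on chromosome 6, had 0, 0 and 1 control reads and 32, 22 and 23 KO2 reads, an 82.9-fold ratio (95% counting interval 14.4 to 3318), against 0, 0 and 0 reads in KO1 (limma adjusted p for KO2 against KO1 = 5.08e-05). MACROH2A2, a histone variant of compact chromatin, had 0, 0 and 0 reads in control and 59, 69 and 56 in KO2, at least 66.1-fold higher. CAVIN2, a coat protein of caveolae, was 0.316, 0.546 and 0.505 TPM in control and 59.2, 60.03 and 61.2 TPM in KO2. Both were also higher in KO1 than in control, at 1.49 ± 0.389 and 10.8 ± 0.742 TPM, and higher again in KO2 (KO2 minus KO1 3.08 and 2.48 in log2 TPM, limma adjusted p = 5.02e-05 and 1.47e-05). CAVIN2 is not typical of the caveolae list, where 2 were higher and 6 lower of 13 tested (median log2 fold change -0.14). Over all tested genes 15.6% were higher and 15% lower. The lower caveolae genes were 3 with the replicate block or without control replicate A or B. The small GTPase gene RAB39B was 1.43, 0.622 and 0.575 TPM in control and 8.05, 8.05 and 9.26 TPM in KO2. The zinc finger gene ZIK1 was 0.897 to 1.05 TPM in control and 7.87 to 9.78 TPM in KO2. Both exceeded KO1 (KO2 minus KO1 4.94 and 3.76, limma adjusted p = 8.75e-06 and 1.58e-05).

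In the opposite direction, COBL, an actin nucleator, had 272, 204 and 201 reads in control and 0, 0 and 0 in KO2, at least 209.5-fold lower. NCAM1, the neural cell adhesion molecule, had 148, 121 and 121 control reads and 0, 0 and 0 KO2 reads, at least 121-fold lower. FAM111B, a serine protease, had 139, 108 and 103 control reads and 0, 0 and 0 KO2 reads, at least 108-fold lower. The T cell receptor beta constant genes TRBC2 and TRBC1 were the most abundant of the lost transcripts. TRBC2 stood at 158, 147 and 161 TPM in control and 1.17, 0.129 and 0.128 TPM in KO2, a 452-fold ratio of reads (95% counting interval 125 to 3738). TRBC1 had 58, 45 and 53 control reads and 0, 0 and 0 KO2 reads. The 2 genes are near-identical copies, so the split of reads between them is uncertain, and no T or B cell marker of the fixed list had a value here. Secreted and surface proteins were among the other losses. Periostin (POSTN), a matrix protein, had 44, 30 and 20 control reads and 0, 0 and 0 KO2 reads. The TNF receptor gene TNFRSF1B had 27, 19 and 16 control reads and 0, 0 and 0 KO2 reads. EPHB6, an ephrin receptor without kinase activity, had 40, 17 and 39 control reads and 0, 0 and 0 KO2 reads. The lysosomal protease gene CTSH (cathepsin H) had 36, 32 and 32 control reads and 1, 0 and 0 KO2 reads. KO1 had 0, 0 and 0 reads of COBL, 0, 1 and 0 of NCAM1, 0, 0 and 0 of FAM111B and 0, 0 and 1 of TRBC2. Of the 9 lost genes named here CTSH alone passed the test between the clones (limma adjusted p = 0.00612), with 3, 4 and 3 reads in KO1.

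**Figure D2:**
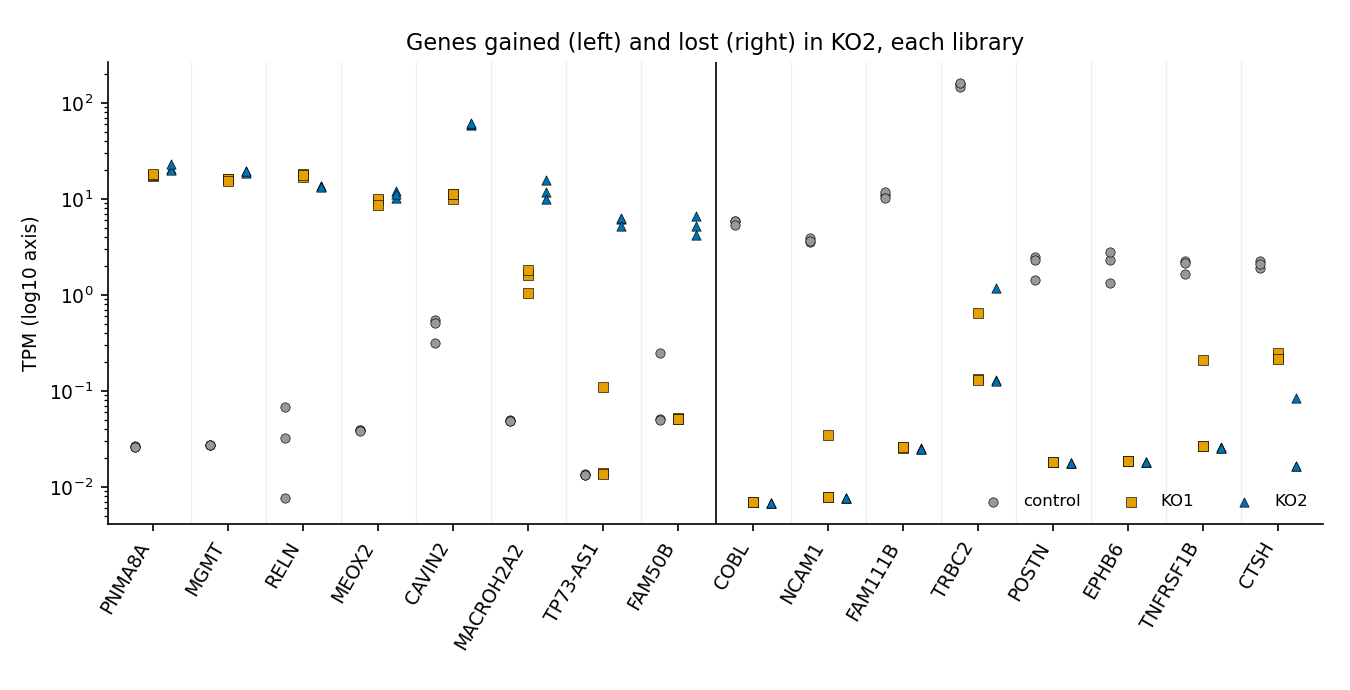
TPM of 8 genes gained and 8 genes lost in KO2 in each library (log10 axis; circles are control, squares KO1 and triangles KO2, 3 libraries each; genes with 0 reads have small values above 0 on the deposited scale). PNMA8A, MGMT, RELN and MEOX2 are high in both clones, whereas TP73-AS1 and FAM50B are high in KO2 alone among the 3 lines.

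The promoters of the gained and the lost genes can be set side by side in the RefSeq table (GRCh38.p14), here for those with a single listed start. Over all 7416 tested genes with such a promoter, the 250 bases upstream of the start held a median of 22 CpG dinucleotides, and 77.7% held 15 or more. Of the gained genes, 17 of 29 had a promoter in the table, with a median of 13 CpG and 7 at 15 or more. Of the lost genes 12 of 26 had one, with a median of 3.5000 CpG and 3 at 15 or more. These genes were picked by their values, so the counts are a description without a test. Shown are the 250 bases before the start of a pair of gained genes, PNMA8A (chr19:46471564-46471813, minus strand) and MGMT (chr10:129466991-129467240, plus strand), and a pair of lost genes, SPATA21 (chr1:16437425-16437674, minus strand) and POSTN (chr13:37598769-37599018, minus strand), read 5′ to 3′ along the gene with each CG in capitals.
PNMA8A: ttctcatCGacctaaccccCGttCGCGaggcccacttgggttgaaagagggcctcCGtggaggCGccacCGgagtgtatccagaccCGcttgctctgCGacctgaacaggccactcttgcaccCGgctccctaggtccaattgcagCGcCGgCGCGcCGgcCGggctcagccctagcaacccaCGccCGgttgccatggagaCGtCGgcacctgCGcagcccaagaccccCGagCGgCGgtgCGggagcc
MGMT: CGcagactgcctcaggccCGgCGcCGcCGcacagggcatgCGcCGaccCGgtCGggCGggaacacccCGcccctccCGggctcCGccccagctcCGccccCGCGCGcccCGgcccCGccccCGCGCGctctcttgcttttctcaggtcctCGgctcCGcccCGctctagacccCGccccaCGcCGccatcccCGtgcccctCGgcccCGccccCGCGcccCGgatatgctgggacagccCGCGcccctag
SPATA21: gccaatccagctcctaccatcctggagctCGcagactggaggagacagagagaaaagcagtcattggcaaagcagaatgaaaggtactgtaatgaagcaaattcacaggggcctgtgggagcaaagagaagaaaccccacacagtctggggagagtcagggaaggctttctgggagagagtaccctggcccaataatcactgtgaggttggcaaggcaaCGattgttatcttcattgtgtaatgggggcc
POSTN: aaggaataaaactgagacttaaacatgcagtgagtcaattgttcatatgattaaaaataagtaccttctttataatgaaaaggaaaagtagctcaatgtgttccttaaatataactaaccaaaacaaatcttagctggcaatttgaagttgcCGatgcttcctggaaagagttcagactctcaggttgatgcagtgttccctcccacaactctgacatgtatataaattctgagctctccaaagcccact
PNMA8A and MGMT held 25 and 36 CpG in these windows, SPATA21 and POSTN 2 and 1. SPATA21, a calcium-binding spermatogenesis gene, had 77, 46 and 52 reads in control and 0, 0 and 0 in KO2, at least 54.1-fold lower. The pairs shown are not typical of all: the gained ones are among the 7 at 15 or more CpG, while 4 gained non-coding genes held 2 to 4, and the lost ones are among the poorest, while the lost gene CTSH held 32. DNA methylation was not measured in these libraries.

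Most genes of cell attachment and of the surrounding matrix that changed were lower in KO2. Over all tested genes 15% were called lower and 15.6% higher. Integrins, the heterodimeric receptors that bind cells to matrix, were called lower for 12 of 16 tested members and higher for 0, with a median log2 fold change of -0.49 against 0.00946 over all genes. Among collagen and basement membrane genes 15 of 27 were lower and 3 higher (median -0.46). Among matrix metalloproteases, the plasminogen system and their inhibitors 17 of 24 were lower and 3 higher (median -0.40). In KO1 the medians of the 3 lists were -0.23, -0.20 and -0.14. The 2 clones were compared with the same 3 control libraries, so their values are only given side by side here and below.

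The loss among integrins ran from rare to abundant subunits. ITGB1, the beta subunit shared by most matrix-binding integrins, was the most abundant at 268, 259.8 and 255 TPM in control and 196, 189 and 204 TPM in KO2, with no overlap between the groups (log2 fold change -0.41, SE 0.0449, limma adjusted p = 9.23e-05). The laminin-binding alpha subunit gene ITGA6 was 149, 148 and 139 TPM in control and 104, 103 and 99.03 TPM in KO2 (log2 fold change -0.51, limma adjusted p = 1.52e-05). ITGA5, which pairs with ITGB1 as the fibronectin receptor, was 83.1 to 87.7 TPM in control and 48.3 to 54.8 TPM in KO2 (log2 fold change -0.73, limma adjusted p = 1e-05). The collagen-binding ITGA2 and the vitronectin-binding ITGB5 were lower by a similar amount, with log2 fold changes of -0.46 and -0.39. Among subunits of low level, ITGB7, a leukocyte homing receptor subunit, was 2.22, 2.72 and 3.02 TPM in control and 0.11001, 0.629 and 0.179 TPM in KO2. ITGA7, a laminin receptor subunit of muscle, was 2.89 to 2.91 TPM in control and 0.567 to 0.947 TPM in KO2. KO2 was also below KO1 for ITGA5 and ITGB5 (KO2 minus KO1 -0.59 and -0.22, limma adjusted p = 6.63e-05 and 0.00295), whereas ITGB1, ITGA6, ITGA2, ITGB7 and ITGA7 did not pass that test.

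Matrix ligands of these receptors moved the same way for most members that changed. LAMB3, a chain of laminin-332 in epithelial basement membranes, was 66.5, 69.3 and 73.2 TPM in control and 27.6, 30.9 and 24.1 TPM in KO2 (log2 fold change -1.34, SE 0.083, limma adjusted p = 2.34e-06). The basement membrane linker gene NID2 was 1.52 to 2.296 TPM in control and 0.345 to 0.583 TPM in KO2. The perlecan gene HSPG2 was 46.4 to 48.9 TPM in control and 24.3 to 32.6 TPM in KO2. The collagen gene COL16A1 was 3.795 to 4.397 TPM in control and 1.14 to 1.25 TPM in KO2. All 4 were below KO1 as well (KO2 minus KO1 -1.44, -2.91, -0.31 and -0.98, limma adjusted p = 2.99e-06, 4.31e-05, 0.0323 and 0.0016). Fibronectin (FN1), held on the list of melanoma plasticity genes, was 3.93, 3.71 and 3.79 TPM in control and 0.943, 1.21 and 0.716 TPM in KO2. That list was mixed, with 4 higher and 8 lower of 22 and a median of -0.007. Tenascin C (TNC) was 43.3 to 48.1 TPM in control and 22.9 to 28.8 TPM in KO2. COL8A1, a short-chain collagen gene, went against the majority at 11.1 to 11.96 TPM in control and 16.7 to 18.8 TPM in KO2 (log2 fold change 0.63, limma adjusted p = 0.000169).

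Of the proteases that cut this matrix, the collagenase gene MMP1 was 2.24, 4.49 and 3.55 TPM in control and 0.652, 0.0495 and 0.406 TPM in KO2. The stromelysin gene MMP3 was 15.7 to 17.5 TPM in control and 4.04 to 6.06 TPM in KO2. PLAT, the tissue plasminogen activator, was 84.7, 96.5 and 92.9 TPM in control and 34.7, 37.7 and 31.4 TPM in KO2 (log2 fold change -1.40, SE 0.0701, limma adjusted p = 5.69e-07). PLAT moved the other way in KO1, with a log2 fold change of 0.56 against the same controls (limma adjusted p = 0.000266), and the clones differed by -1.96 (limma adjusted p = 2.03e-07). The neighbouring genes MMP1 and MMP3 on chromosome 11 were also lower in KO2 than in KO1 (KO2 minus KO1 -3.27 and -1.20, limma adjusted p = 0.0109 and 0.000222). ADAM12 was 2.13, 2.38 and 2.305 TPM in control and 0.211, 0.102 and 0.117 TPM in KO2. ADAMTS1, a protease that cuts proteoglycans, was higher in KO2, at 12.5 to 14.6 TPM in control and 24.3 to 26.7 TPM in KO2 (log2 fold change 0.96, limma adjusted p = 1.91e-05). The protease inhibitor gene SERPINB5 (maspin) had 0, 0 and 0 reads in control and 27, 32 and 47 in KO2, at least 38.1-fold higher, and the list of serpins that holds it had 2 higher and 3 lower of 10 tested.

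**Figure D3:**
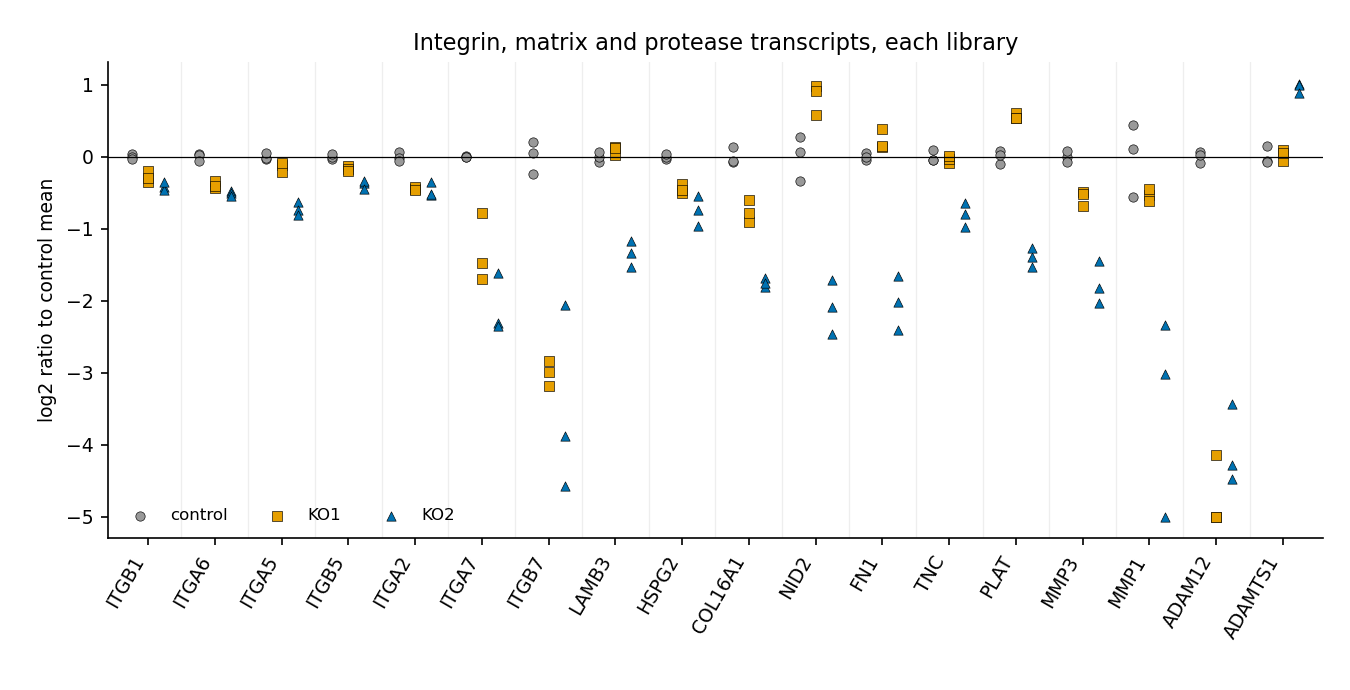
Log2 ratio to the mean of the 3 control libraries for integrin, matrix and protease genes (vertical axis) in each library: circles are control, squares KO1 and triangles KO2, 3 libraries each, with values below -5 drawn at -5. The KO2 libraries of ITGB1, ITGA6 and ITGA5 lie below 0 with no overlap with control, and for PLAT the 2 clones lie on opposite sides of the control libraries.

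Receptor tyrosine kinases, which turn growth factor binding into phosphorylation signals, were lower for 13 of 25 tested genes and higher for 1 (median log2 fold change -0.29). MET, the receptor of hepatocyte growth factor, was 238, 235 and 229 TPM in control and 169, 166 and 163 TPM in KO2 (log2 fold change -0.49, SE 0.0338, limma adjusted p = 4.57e-06), and the difference from KO1 was -0.37 (limma adjusted p = 4.93e-05). ERBB3, a receptor of neuregulins, was 3.33 to 3.79 TPM in control and 0.789 to 1.12 TPM in KO2. The insulin receptor gene INSR was 2.28 to 3.198 TPM in control and 0.921 to 1.22 TPM in KO2. The endothelial receptor gene TIE1 was 36.4 to 39.5 TPM in control and 15.7 to 18.2 TPM in KO2. Ligands of such receptors included 10 lower and 4 higher of 30 tested, with a median of -0.03. The EGF receptor ligand amphiregulin (AREG) was 60.7, 68.05 and 57.3 TPM in control and 13.03, 12.7 and 11.6 TPM in KO2. Pleiotrophin (PTN), a heparin-binding growth factor, was 4.31 to 6.87 TPM in control and 0.05698 to 0.878 TPM in KO2. GAS6, the ligand of the TAM receptors, was 2.37 to 3.62 TPM in control and 0.394 to 0.873 TPM in KO2. PDGFA was 19.3 to 20.7 TPM in control and 8.66 to 11.3 TPM in KO2, and both lay below KO1 (limma adjusted p = 0.0107 and 0.000785).

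Transcripts induced by MAPK signalling and its feedback inhibitors had 10 lower and 3 higher of 23 (median -0.11). The count of lower ones was 5 without control replicate A and 6 without KO2 replicate C. PHLDA1 was 221, 201 and 198 TPM in control and 124, 136 and 120.00 TPM in KO2 (log2 fold change -0.71, SE 0.0575, limma adjusted p = 1.41e-05), and the Sprouty inhibitor gene SPRY1 was 4.23 to 6.55 TPM in control and 2.95 to 3.72 TPM in KO2. The cytokine gene LIF was 68.6 to 75.1 TPM in control and 50.1 to 53.8 TPM in KO2. The ERK phosphatase gene DUSP4 was 140.01 to 143 TPM in control and 109 to 124 TPM in KO2. These 4 were lower in KO2 than in KO1 too (limma adjusted p = 6.05e-05, 0.00216, 2.31e-05 and 0.00194). The phosphatase genes DUSP7 and DUSP5 were higher, at log2 fold changes of 0.66 and 0.35, and both lie in the stretches of chromosomes 3 and 10 described below.

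Chemokines, cytokines and their receptors were lower for 14 of 36 and higher for 2 (median -0.21). Interleukin 1 beta (IL1B) was 5.2003, 3.93 and 4.12 TPM in control and 0.799, 1.204 and 0.9398 TPM in KO2. Interleukin 11 (IL11) was 36.7 to 41.6 TPM in control and 12.2 to 16.2 TPM in KO2. Interleukin 18 (IL18) was 45.1 to 49.1 TPM in control and 23.001 to 28.7 TPM in KO2. KO2 was below KO1 for IL1B and above it for IL11 and IL18 (KO2 minus KO1 -1.96, 0.56 and 0.37, limma adjusted p = 0.0001, 0.00396 and 0.0307). Genes of antigen presentation had 8 lower and 1 higher of 27 (33.3% called, against 30.6% of all tested genes). CD74, the invariant chain that escorts class II molecules, was 89.8, 90.2 and 84.1 TPM in control and 18.1, 19.6 and 17.6 TPM in KO2, or -2.26 as log2 fold change (SE 0.0555, limma adjusted p = 4.65e-09). The class I heavy chain gene HLA-C was 47.1 to 53.1 TPM in control and 27.7 to 30.6 TPM in KO2. HLA-B was 8.303 to 9.46 TPM in control and 2.86 to 4.18 TPM in KO2, with the reservation that reads can be split among class I genes of near-identical sequence. The peptide transporter subunit TAP1 was 12.1 to 15.1 TPM in control and 8.92 to 10.6 TPM in KO2. CD74, HLA-B, HLA-C and TAP1 were each lower in KO2 than in KO1 (limma adjusted p = 4.31e-05, 0.000712, 0.000228 and 0.0249). The interferon response list had 10 higher and 3 lower of 34 (median 0.14), 4 of the higher ones in the stretches of chromosomes described below, and the median of the 29 genes outside them was 0.00409. IFIT3, an interferon-induced antiviral gene, was 28.4, 27.96 and 25.2 TPM in control and 40.97, 38.5 and 45.05 TPM in KO2. OAS1, a sensor of double-stranded RNA, was lower, at 12.1 to 12.5 TPM in control and 4.02 to 5.42 TPM in KO2.

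Aldehyde dehydrogenases and genes of retinoid handling had 12 lower and 0 higher of 22 tested, with a median log2 fold change of -0.32. ALDH1A3, which makes retinoic acid, was 94.8, 93.2 and 93.3 TPM in control and 72.8, 72.8 and 69.4 TPM in KO2 (log2 fold change -0.39, SE 0.0508, limma adjusted p = 0.00031). Mitochondrial ALDH2, which clears acetaldehyde, was 14.7 to 15.8 TPM in control and 9.91 to 10.05 TPM in KO2. The retinal reductase gene DHRS3 was 14.6 to 16.2 TPM in control and 6.17 to 8.77 TPM in KO2. The retinoic acid receptor gene RARB was 9.27 to 10.2 TPM in control and 4.69 to 5.43 TPM in KO2. RARB and ALDH2 were higher in KO2 than in KO1 (limma adjusted p = 0.000674 and 0.0104), and ALDH1A3 and DHRS3 did not pass that test. Among drug and conjugate exporters on the glutathione list, ABCC2 was 37.2, 37.4 and 37.5 TPM in control and 3.57, 3.66 and 3.01 TPM in KO2. ABCC3 was 9.704 to 10.4 TPM in control and 3.45 to 4.64 TPM in KO2, and that list had 9 lower and 10 higher of 38, or 6 higher without control replicate A or B.

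Genes that supply amino acids and lipids were more often higher than lower. Of 36 tested genes of serine, one-carbon and amino acid supply, 21 were higher and 2 lower, with a median log2 fold change of 0.21. Only 3 of the 21 lie in the stretches of chromosomes described below. Asparagine synthetase (ASNS) was 169.7, 172 and 164 TPM in control and 233, 239.8 and 262 TPM in KO2 (log2 fold change 0.54, SE 0.0621, limma adjusted p = 0.000135). The cystathionine lyase gene CTH, which makes cysteine, was 20.6 to 21.97 TPM in control and 33.1 to 41.8 TPM in KO2. The neutral amino acid carrier gene SLC1A4 was 13.5 to 14.5 TPM in control and 22.7 to 25.2 TPM in KO2. ASNS, CTH and SLC1A4 also exceeded KO1 (KO2 minus KO1 0.72, 0.61 and 0.37, limma adjusted p = 3.47e-05, 0.000998 and 0.00245). The cystine carrier gene SLC7A11 was 19.2 to 20.01 TPM in control and 27.9 to 28.95 TPM in KO2. The glutamine carrier gene SLC38A1 was 107 to 113 TPM in control and 147 to 156 TPM in KO2, with no difference from KO1 that passed the test.

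Several of these genes are classical targets of ATF4, the transcription factor of the integrated stress response. On that list, which overlaps the former in ASNS, 14 of 33 were higher and 7 lower (median 0.17). The glutathione-degrading enzyme gene CHAC1 was 26.2, 23.7 and 26.7 TPM in control and 44.9, 41.1 and 44.1 TPM in KO2. The leucine sensor gene SESN2 was 33.7 to 35.8 TPM in control and 49.7 to 55.5 TPM in KO2. The stress transcription factor gene ATF3 was 17.1 to 22.4 TPM in control and 26.6 to 28.4 TPM in KO2. DDIT4, an inhibitor of mTORC1 on chromosome 10, was 358 to 375 TPM in control and 553 to 585 TPM in KO2 and was lower than control in KO1, at 226 ± 11.4 TPM (KO2 minus KO1 1.32, limma adjusted p = 1.44e-07). Among the lower members was PDIA4, a protein disulfide isomerase of the endoplasmic reticulum, at 213 to 229 TPM in control and 163 to 167 TPM in KO2 (log2 fold change -0.42, limma adjusted p = 2.28e-05).

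Of 25 genes of sterol and isoprenoid synthesis 10 were higher and 2 lower (median 0.14), and of 23 of fatty acid synthesis and desaturation 9 and 2 (median 0.11). The lanosterol demethylase gene CYP51A1 was 19.6, 21.2 and 18.4 TPM in control and 45.4, 42.8 and 46.02 TPM in KO2 (log2 fold change 1.18, SE 0.0666, limma adjusted p = 1.23e-06). Fatty acid synthase (FASN) was 342 to 365 TPM in control and 413 to 526 TPM in KO2. The desaturase gene FADS1 was 85.5 to 89.4 TPM in control and 125 to 132 TPM in KO2. The stearoyl desaturase gene SCD, on chromosome 10, was 609 to 646 TPM in control and 915 to 942 TPM in KO2.

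Among 27 tested p53 targets 7 were lower and 3 higher (median -0.02). The cyclin-dependent kinase inhibitor gene CDKN1A was 139.6, 142 and 139 TPM in control and 86.7, 85.3 and 87.3 TPM in KO2 (log2 fold change -0.70, SE 0.0405, limma adjusted p = 1.51e-06). The antiproliferative gene BTG2 was 13.3 to 13.99 TPM in control and 6.07 to 7.28 TPM in KO2. The DNA damage sensor gene DDB2 was 31.4 to 36.9 TPM in control and 20.8 to 22.99 TPM in KO2. All 3 were lower than in KO1 (KO2 minus KO1 -0.94, -1.02 and -0.64, limma adjusted p = 5.74e-07, 4.55e-05 and 0.000192). GDF15, a secreted stress factor, was higher, at 36.2 to 45.2 TPM in control and 50.2 to 68.97 TPM in KO2, a call lost without control replicate B (limma adjusted p = 0.0523). The apoptosis list had 12 lower and 5 higher of 38, and 7 lower without control replicate C. The members that moved include both promoters and inhibitors of cell death: the killer gene BOK was 50.4 to 54.7 TPM in control and 22.7 to 25.98 TPM in KO2. The killer gene BIK was 18.02 to 23.4 TPM in control and 8.59 to 10.6 TPM in KO2. The protective gene BCL2 was 5.11 to 5.95 TPM in control and 3.77 to 4.56 TPM in KO2, a call that also hung on the settings: it was lost with the replicate block (limma adjusted p = 0.0662), in the fit of only the 6 libraries and without the filter on low values, and without any library but KO2 replicate B (limma adjusted p 0.0749 to 0.149). Caspase 8 (CASP8), the initiator of the death receptor pathway, was higher, at 20.4 to 21.3 TPM in control and 28.2 to 31.1 TPM in KO2.

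Cell cycle genes moved in both directions, with 9 higher and 13 lower of 41 (median -0.10). CDK1, the mitotic kinase, on chromosome 10, was 63.04, 63.8 and 59.2 TPM in control and 86.03, 92.3 and 108 TPM in KO2. The phosphatase gene CDC25B that activates it, on the short arm of chromosome 20, was 205 to 221 TPM in control and 100.3 to 114 TPM in KO2. The mitotic kinase genes AURKA and BUB1 had log2 fold changes of -0.32 and -0.40 (limma adjusted p = 0.000394 and 6.16e-05). Of 51 DNA repair genes 31.4% were called, against 30.6% of all tested genes. Among them 12 were higher and 4 lower, 4 of the higher ones in the stretches, and 7 were higher without KO2 replicate A. Beside MGMT these included FANCD2, of the crosslink repair pathway and on the short arm of chromosome 3, at 26.1 to 28.4 TPM in control and 47.8 to 52.3 TPM in KO2. The DNA-dependent protein kinase gene PRKDC was 174 to 180.4 TPM in control and 268 to 302 TPM in KO2.

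The lists of lineage and signalling regulators were mixed. MITF, whose TPM values stand above, was 0.43 higher in log2 TPM (SE 0.0706; limma adjusted p = 0.00128) and of -0.50 in KO1 (limma adjusted p = 0.000534), and it lies in the chromosome 3 stretch. SOX9, a neural crest factor, was 37.5, 33.7 and 37.6 TPM in control and 29.1, 34.04 and 24.6 TPM in KO2, so that 1 KO2 library lay within the control range, and it was 47.7 ± 2.17 TPM in KO1. Its call was lost with the replicate block (limma adjusted p = 0.0676), without the variance trend, in the fit of only the 6 libraries, and without control replicate A or C or KO2 replicate A or C (limma adjusted p 0.0876 to 0.113). The nerve growth factor receptor gene NGFR, a marker of dedifferentiated melanoma cells, was 2.33 to 3.13 TPM in control and 0.447 to 1.12 TPM in KO2. Of 24 Notch pathway genes 6 were lower and 4 higher, and the ligand gene JAG1 on chromosome 20 was 9.003 to 10.8 TPM in control and 2.96 to 3.82 TPM in KO2. Of 30 Wnt pathway genes 5 were higher and 4 lower, close to the background shares, and outside the stretches 2 and 3 of 26. The secreted Wnt antagonist gene SFRP1 was 71.2 to 77.9 TPM in control and 146 to 165 TPM in KO2. DKK1 was 252 to 263 TPM in control and 375 to 396 TPM in KO2. DKK3 was 3.91 to 4.42 TPM in control and 8.57 to 9.44 TPM in KO2. WNT5A was 8.87 to 9.398 TPM in control and 4.81 to 5.96 TPM in KO2. Of 30 HOX genes 6 were lower and 3 higher, so that 30% were called, against 30.6% of all tested genes. The 6 lower ones were all in the C cluster, a pattern picked out from the calls and not tested. HOXC13 was 8.68, 7.78 and 9.06 TPM in control and 4.12, 3.22 and 6.13 TPM in KO2. HOXC11 was 2.86 to 4.14 TPM in control and 1.14 to 1.75 TPM in KO2.

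Of 18 tested imprinted genes 4 were higher and 2 lower, close to the background shares. Neighbours on chromosome 15 that are expressed from the paternal allele rose together. NDN was 10.1, 8.25 and 9.19 TPM in control and 28.1, 32.7 and 28.3 TPM in KO2. SNRPN and SNURF, which share a transcript so that their reads cannot be told apart with certainty, were called higher too. SNRPN was 103 to 106 TPM in control and 216 to 223 TPM in KO2. SNURF was 181 to 193 TPM in control and 369 to 391 TPM in KO2. Their non-coding extension SNHG14 was 12.3 to 12.8 TPM in control and 25.6 to 26.3 TPM in KO2. PLAGL1, a paternally expressed zinc finger gene on chromosome 6, was the opposite case, at 4.41 to 5.22 TPM in control and 0.253 to 0.4198 TPM in KO2. KO1 kept 3.403 ± 0.09795 TPM (limma adjusted p for KO2 against KO1 = 5.78e-06). SNHG14 is also one of the small nucleolar RNA host genes, of which 8 of 25 were higher and 1 lower (median 0.13), none of them in the stretches. SNHG5 had 151, 146 and 151 TPM in control and 348, 339.6 and 372 TPM in KO2 (log2 fold change 1.24, SE 0.0438, limma adjusted p = 6.43e-08), against 153 ± 6.096 TPM in KO1.

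**Figure D4:**
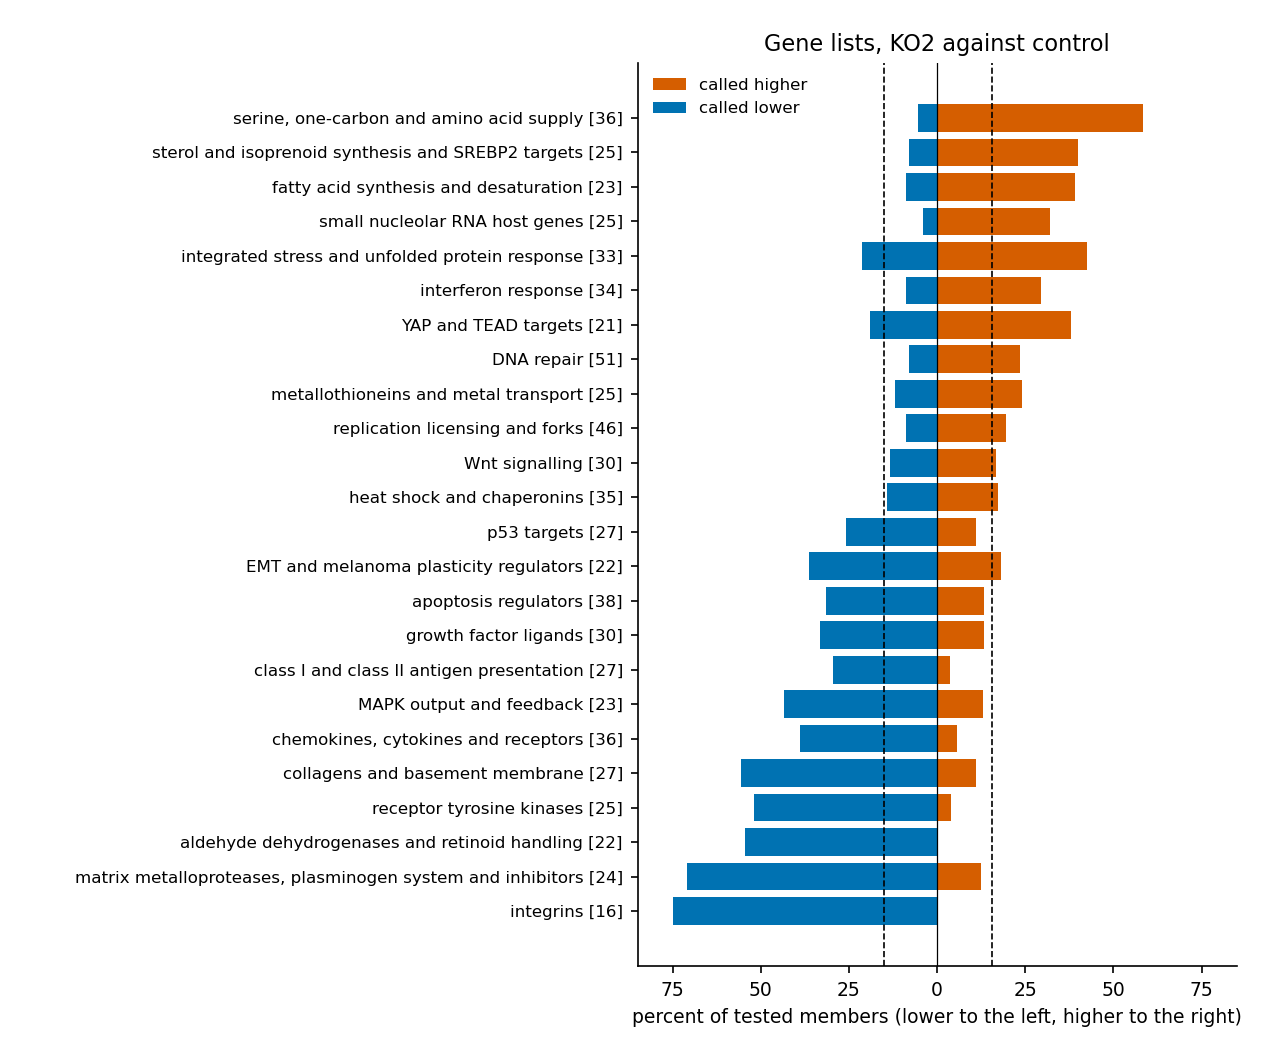
Percent of the tested members of 24 gene lists called higher (orange, to the right) and lower (blue, to the left) in KO2 against control, with the number tested in brackets; dashed lines mark the shares over all tested genes, 15.6% and 15%. Integrins and aldehyde dehydrogenases have no member called higher, and serine, one-carbon and amino acid supply has the longest bar to the right.

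Other lists held single genes with large changes among mixed counts. Genes of glycolysis and the hypoxia response had 8 higher and 11 lower of 35. The carbonic anhydrase gene CA9 was 40.2, 49.7 and 45.8 TPM in control and 12.9, 10.9 and 9.95 TPM in KO2, above the 0.442 ± 0.153 TPM of KO1 (limma adjusted p for KO2 against KO1 = 1.8e-06). The lactate exporter gene SLC16A3 was 4.595 to 6.28 TPM in control and 1.07 to 1.57 TPM in KO2. The aldolase gene ALDOC was 36.7 to 42.999 TPM in control and 79.04 to 83.6 TPM in KO2, higher than both other lines (limma adjusted p for KO2 against KO1 = 1.8e-06). CDC42, a GTPase of cell polarity, was 228 to 231 TPM in control and 139 to 168 TPM in KO2. TGF-beta and BMP pathway genes had 4 higher and 8 lower of 42 (28.6% called, against 30.6% of all tested genes). Follistatin (FST), which binds activin, was 215 to 219 TPM in control and 409.8 to 414 TPM in KO2. TGFBI, a matrix protein induced by TGF-beta, was 44.5 to 48.1 TPM in control and 9.96 to 13.1 TPM in KO2. Lysosomal genes had 6 higher and 12 lower of 48. Heat shock proteins and chaperonins had 6 higher and 5 lower of 35 (31.4% called, against 30.6% of all tested genes). Without control replicate B these counts were 3 and 3. Among them the small heat shock protein gene HSPB1 was 286 to 296 TPM in control and 135 to 138 TPM in KO2. SULF2, which trims sulfate from heparan sulfate chains, was 13.7 to 14.9 TPM in control and 0.4903 to 1.705 TPM in KO2, and lower than in KO1 as well (limma adjusted p = 0.00096).

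The largest changes in absolute level concerned abundant transcripts. EEF2, translation elongation factor 2, was 3751, 4039 and 3989.7 TPM in control and 4527, 4584 and 4255 TPM in KO2 (log2 fold change 0.18, SE 0.0419, limma adjusted p = 0.00846). BCYRN1, a brain cytoplasmic non-coding RNA, was 728 to 846 TPM in control and 1357 to 1479 TPM in KO2. IMPDH2, which commits purines to guanine nucleotides, was 798 to 808 TPM in control and 1221 to 1224 TPM in KO2. In the other direction, S100A6, a calcium-binding protein of growing cells, was 2709 to 2812 TPM in control and 1912 to 1957 TPM in KO2. RMRP, the RNA component of RNase MRP, was 4569 to 4906 TPM in control and 3415 to 3553 TPM in KO2. RMRP has a second, overlapping identifier in the table with almost the same values, so its reads may be shared. The mitochondrial transcripts MT-CO3 and MT-CO2 fell and MT-CYB rose, at log2 fold changes of -0.35, -0.22 and 0.30, and the call of MT-CO2 was lost after quantile normalization (-0.06, limma adjusted p = 0.223). The share of reads from mitochondrial genes was 3.48 to 3.73% in control and 3.25 to 3.59% in KO2.

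Several long runs of neighbouring genes were shifted in one direction. Tested genes were placed in windows of 25 neighbours by GENCODE 44 positions on hg38, and runs of at least 2 windows with a median beyond 0.25 on the log2 scale from the median of all genes were joined into stretches. This gave 8 stretches with 1116 genes, of which 71.4% were called, against 27.2% of the 13396 genes elsewhere (3641), a gap that follows in part from choosing the windows by their medians. The longest covers 419 genes over 91 Mb of chromosome 10 (42513510 to 133523558), with a median ratio of KO2 to control of 1.33 and 285 genes called higher against 12 lower. On chromosome 3 a stretch of 300 genes (25782917 to 88149885) had a median ratio of 1.301, and one of 75 genes (3126933 to 15450635) a median ratio of 1.51. In KO1 the medians of these 3 stretches were 0.0132, 0.0491 and 0.0606 on the log2 scale, and 269, 186 and 60 of their genes were called higher in KO2 than in KO1, against 12% of all tested genes.

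The gains on chromosomes 3 and 10 took in genes of unrelated roles. PGAM1, a glycolytic enzyme on chromosome 10, was 701, 689 and 698 TPM in control and 886, 862 and 930.1 TPM in KO2. The mitochondrial gene GHITM there was 477 to 489.99 TPM in control and 676 to 748 TPM in KO2. On chromosome 3 the ribosomal protein gene RPL29 was 813 to 838 TPM in control and 1112 to 1206 TPM in KO2. The small GTPase gene RHOA was 581 to 595 TPM in control and 748 to 785 TPM in KO2. Genes inside the stretches could still fall, as ABCC2 and ADAM12 did on chromosome 10 and the Rac activator gene DOCK3 on chromosome 3 (7.11 to 7.34 TPM in control and 2.03 to 2.45 TPM in KO2). Stretches lower in KO2 were on the short arms of chromosome 18 (158383 to 21111813, 75 genes, median ratio 0.696) and chromosome 20 (270863 to 13638932, 75 genes, 0.696). They held the tubulin gene TUBB6, which was 781 to 828 TPM in control and 424 to 447 TPM in KO2. The thymidylate synthase gene TYMS was 797 to 822 TPM in control and 554 to 569.5 TPM in KO2. The spliceosomal gene SNRPB was 1434 to 1665 TPM in control and 1002 to 1016 TPM in KO2. In KO1 the medians of those 2 stretches were -0.479 and -0.526 on the log2 scale, against -0.523 and -0.523 in KO2. The remaining stretches were 2 on chromosome 2, of 50 and 72 genes (median ratios 1.399 and 1.37), which hold nucleolin (NCL, 822 to 856 TPM in control and 1130.3 to 1236 TPM in KO2), and 1 of 50 mostly zinc finger genes on chromosome 19 (1.23). In KO1 the medians of the 2 chromosome 2 stretches and the chromosome 19 one were 0.5295, 0.496 and 0.3365 on the log2 scale. The same medians in KO2 were 0.484, 0.456 and 0.297. Of their genes 2, 7 and 1 were called higher in KO2 than in KO1, against 12% of all tested genes. DNA copy number was not measured here, and its part in the values of all 8 stretches was not tested.

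**Figure D5:**
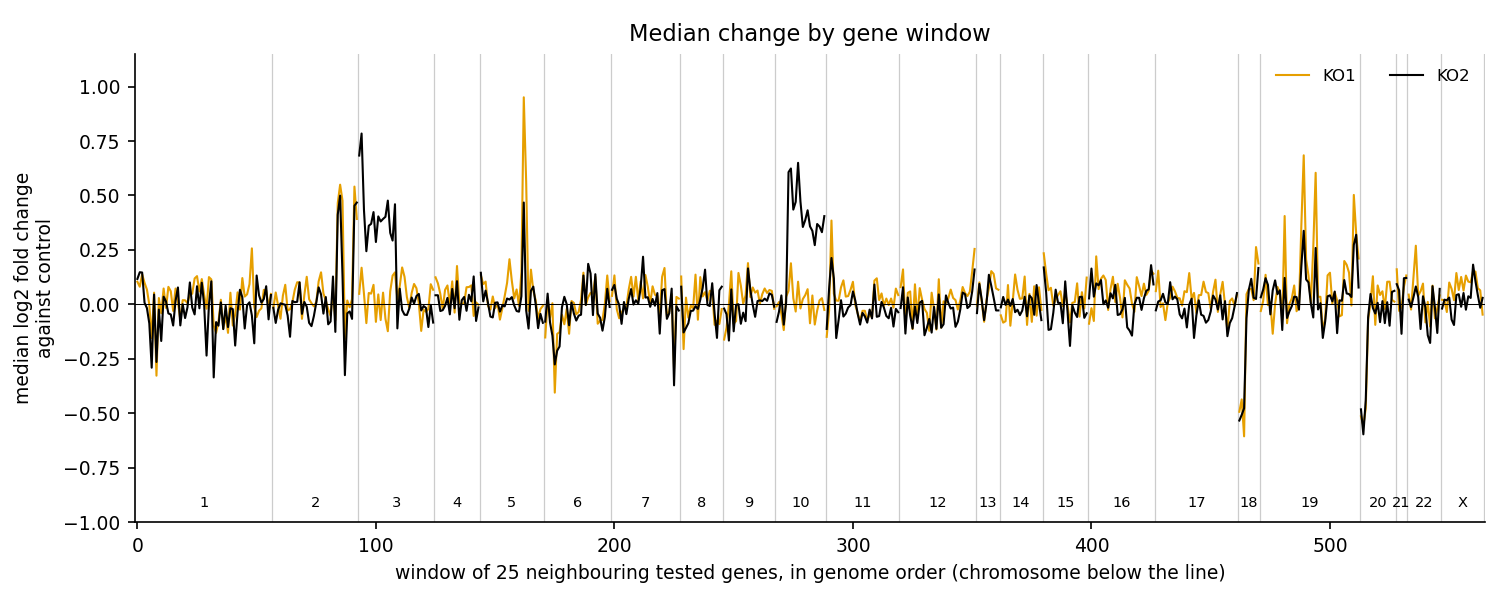
Median log2 fold change of KO2 (black) and KO1 (orange) against control in 565 windows of 25 neighbouring tested genes, in genome order with chromosomes set apart by grey lines. The windows in the first part of chromosome 3 and in the long arm of chromosome 10 are high in KO2 and not in KO1, while those of the short arms of chromosomes 18 and 20 are low in both clones.

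Each group was also counted without the genes of the stretches, a choice made after seeing the data. Outside them 12 of 16 integrins and 16 of 22 matrix proteases were lower, 18 of 33 amino acid supply genes were higher and 6 of 20 fatty acid genes were higher, against 12.1% higher and 15.1% lower over all genes outside the stretches. DNA repair outside them had 8 higher and 4 lower of 45, and interferon response 6 higher and 3 lower of 29.

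Since m6Am needs an adenosine at the first transcribed position, genes were grouped by the base at the most upstream annotated start of GENCODE 44. The median log2 fold change of KO2 against control was 0.00541 for 5760 genes with A, 0.0171 for 2249 with C, 0.00733 for 5412 with G and 0.0186 for 975 with T. Among genes with A 15.43% were called higher and 15.45% lower, and among genes with G 15.7% and 15.7%. The higher share exceeded the lower one among genes with C (16.3% and 13.8%) and with T (15.1% and 11.6%). With the start of the canonical transcript these shares were 16.1% and 12.1% for C and 12.2% and 7.87% for T. The middle 50% of the log2 fold changes of A genes ran from -0.169 to 0.177, and that of G genes from -0.164 to 0.175. These are descriptions, and the difference between the bases was not tested. An annotated start is not a measured one, and many genes use several. Start windows from RefSeq (GRCh38.p14, 20 bases before and 9 after the start, 5′ to 3′, start base in capitals) show genes of either kind among those that rose in KO2.
PNMA8A: cgagcggcggtgcgggagccAgtgcgcagg
MGMT: gggacagcccgcgcccctagAacgctttgc
FAM50B: ccagggggcgcaccgcctccActtcctgtg
EEF2: tgagtgttgacgtcagcgttCtcttccgcc
RPL29: tgctgcaccgcagcccctttCtcttccggt
SNHG5: tactggctgcgcacttcggtCttttacgtc
PNMA8A, MGMT and FAM50B start with A in this table, and EEF2, RPL29 and SNHG5 start with C inside a run of pyrimidines, the pattern of transcripts of the translation machinery.

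Among genes of the methylation machinery itself, the cap list was called at about the background share and the internal m6A list less often. Of 14 cap and cap-adjacent methylation genes 2 were higher and 2 lower (28.6% called, against 30.6% of all genes). CMTR2, which methylates the ribose of the second transcribed nucleotide, was 20.2, 20.9 and 19.9 TPM in control and 17.1, 14.9 and 17.8 TPM in KO2, a call lost without control replicate B (limma adjusted p = 0.0567). RNMT, which methylates the cap guanosine and lies in the chromosome 18 stretch, was 134 to 140.4 TPM in control and 107 to 115 TPM in KO2. TGS1, which makes the trimethylated cap of small nuclear RNAs, was 55.9 to 63.2 TPM in control and 67.5 to 75.4 TPM in KO2. Of 12 writers and erasers of internal m6A, RBM15B alone passed the test (8.33% called, against 30.6% of all genes). It was 78.8 to 83.8 TPM in control and 97.2 to 116 TPM in KO2, and it lies in the chromosome 3 stretch.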

How the data were processed

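Input RNA-seq of the MEL624 control line and the knockout clones KO1 and KO2, 3 libraries each, was used as the table of log2 TPM that the authors deposited, and the matching m6A libraries were not used. The submitters' processing notes name featureCounts, HISAT2 2.0.4, edgeR 3.12.1 with R 3.3.3, deepTools 3.0.2 and SAMtools 1.7, and the build hg38. Not given in the sources used here are which tool made the TPM values, the annotation, the strand setting and how the authors chose genes. The values convert back to TPM that sum to 1000000 in each library, and the steps between them gave whole reads for 100% of the 15258 genes (within 1e-06 of a read), from 7848089 to 11393206 per library. Depth sets the precision of low genes.

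Genes at a mean of 1 TPM or more over the KO2 and control libraries were tested with limma 3.58.1 (R 4.3.3) on the deposited log2 TPM, with 1 mean per line, a variance trend, 9 libraries and 6 residual degrees of freedom. P-values were adjusted by Benjamini-Hochberg over all 14512 genes, and a gene was called at an adjusted p under 0.05. Fold changes are on the log2 scale of the deposited values, which understates those of genes near 0 reads. GENCODE 44 (hg38) gave positions for 15138 of the 15258 identifiers. PCIF1 was also tested by exact permutation. The fit was tested on simulated data.

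Genes named were PCIF1, the extremes by fold, by absolute change and by reads against 0, those that also differ between the clones, up to 6 called members and the most abundant member of each gene list, up to 3 per stretch and those at the 1 TPM limit. Some further list members were chosen after their values were seen, and some genes and 1 list are not reported here. The comparison, the gene lists and the tests were chosen with earlier results of these data known. Alternatives were other pseudocounts, filters, scalings and variance models, a replicate block, limma-voom on the recovered reads and leaving out each library.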

Additional observations from a re-analysis of the deposited data

Results flagged for a closer look

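In 7 tested genes the 2 clones were called in opposite directions against control, each by more than 1 on the log2 scale, and the difference between the clones was tested directly. Every one was called higher in KO2 and lower in KO1, a shared direction that follows in part from the gene filter. The filter used KO2 and control alone, so a gene under 1 TPM in both could not enter, however high in KO1. CHRDL1, ZNF560, PNMA6A and RAB39B had control means under 1 TPM and passed it through their KO2 values. For CHRDL1, ZNF560 and PNMA6A the lower call in KO1 is at the floor of detection, with 1 to 4 reads in each control library against 0 in every KO1 library, and it rests on the small value that 0 reads receive. CHRDL1, a BMP antagonist on chromosome X, was 0.261, 0.4498 and 0.123 TPM in the control libraries, 12.95, 11.8 and 12.6 TPM in KO2 and 0.0255 ± 0.000138 TPM in KO1, and KO2 minus KO1 was 8.93 on the log2 scale (limma adjusted p = 1.8e-06). The telomerase gene TERT was 3.55, 3.18 and 3.51 TPM in control and 7.65, 12.3 and 7.79 TPM in KO2, with KO2 minus KO1 5.89 (limma adjusted p = 1.8e-06). RAB39B, described above, had KO2 minus KO1 4.94 (limma adjusted p = 8.75e-06). ZNF560 differed by 7.0 (limma adjusted p = 1.8e-06), PNMA6A by 5.60 (limma adjusted p = 4.63e-05) and the stress gene NUPR1 by 2.39 (limma adjusted p = 6e-07). The long non-coding gene ENSG00000248837 was 3.68 to 4.29 TPM in control and 12.7 to 13.4 TPM in KO2, with KO2 minus KO1 4.65 (limma adjusted p = 0.0001), and its call against control was lost without control replicate B or C or KO2 replicate A or B (limma adjusted p 0.0506 to 0.06). For genes near 0 reads in KO1 these differences depend on the small prior count in the deposited values and are no bounds. With 3 libraries per line, single libraries that stand apart were not tested for.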

How the results depend on the processing

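The number of genes called, 4438, ran from 3786 to 5078 under the pseudocounts, filters, scalings and variance models tried, with 5078 called by limma-voom on the recovered reads, and from 3414 to 4015 when 1 library was left out. The share of called genes that were higher was 51.1%, 54.4% after median centring and 46.6% with limma-voom. PCIF1 was called under none of the settings, with log2 fold changes from 0.01 to 0.12. Of the 155 other named genes 149 were called under every setting in which they were tested and 0 reversed. The exceptions were BCL2, SOX9, GDF15, CMTR2, ENSG00000248837 and MT-CO2, the last one only after quantile normalization (log2 fold change -0.06, limma adjusted p = 0.223). Between the clones 107 of the named genes were called, and 88 to 111 under the alternatives, against 28.7% of all tested genes. The named genes were chosen in part by this call and by the size of their change. Their counts here therefore do not describe genes at large. The comparison between the clones was not run in the fit of only 6 libraries. Among 48 list counts of 5 or more, 17 moved by over 1.5 times under at least 1 setting. At a mean of at least 5 TPM, which tests fewer genes, collagen and basement membrane had 9 lower and chemokines 8. The list of melanoma plasticity genes had 4 higher and 8 lower of 22 (54.55% called, against 30.6% of all tested genes). The lower ones were 5 without KO2 replicate C. In a fit with the replicate letter as a block 3887 genes were called, 103 of the named genes differed between the clones and PCIF1 kept its log2 fold change of 0.0659, while the calls of BCL2 and SOX9 were lost. The letters only name the libraries, since same-letter deviations of KO2 and control correlated at -0.03, -0.02 and -0.06 across genes. Depth limits genes of 1 to 2 TPM, whose median standard error was 0.296 on the log2 scale.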

Other observations

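Lists not described above gave the following counts, to be read against 30.6% called over all tested genes. Of 21 targets of YAP and TEAD, the growth control factors, 8 were higher and 4 lower (57.1% called). The higher ones were 5 without KO2 replicate A or B. Of 46 genes of replication licensing and forks 9 were higher and 4 lower (28.3% called, close to the share over all genes). Of 34 axon guidance genes 9 were higher and 11 lower (58.8% called). Of 17 cancer testis genes 4 were higher and 0 lower (23.5% called, under the share over all genes).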
